A study of Homo sapiens with 3 samples.

Results

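The 4 myosin light chain genes of heart muscle, MYL2, MYL3, MYL4 and MYL7, were followed through the growth of chambered cardiac organoids (CCOs), hollow beating structures made from the human embryonic stem cell line H7. They were taken by name, and all 4 were among the 32738 genes of the deposited count table. CCOs of D8, D14 and D21 of differentiation were dissociated, and the RNA of single cells was read from its 3′ end in droplets, with 1 library per day. All CCOs came from the same line without a genetic change, by timed activation and then inhibition of Wnt signalling, aggregation in Matrigel, growth in cardio-sphere growth medium, and later RPMI with B27 under stirring, so the groups differed in age and in the medium and vessel of that age. A difference between days therefore could not be told apart from a difference between libraries, and no p-value is given.

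A myosin motor of the sarcomere is built of heavy chains, each of which carries a regulatory and an essential light chain on its lever arm. In the human heart the regulatory chain of the ventricle is MYL2 and that of the atrium is MYL7, while the essential chain of the ventricle is MYL3 and that of the atrium is MYL4. MYL4 and MYL7 are also made in the ventricle of the embryo, so the ventricular partner of each pair is often read as a sign of chamber type or of age. Phosphorylation of the regulatory chains by myosin light chain kinases tunes the force of contraction.

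The members of each pair are related genes, and their closest coding stretches are shown. The libraries read RNA from its 3′ end, and the 3′ ends were not compared on their own. The stretches therefore do not tell whether reads of one gene were counted for another. In the GENCODE transcripts, MYL3 and MYL4 were identical at 80.1% of 582 aligned coding bases, and MYL2 and MYL7 at 68.2% of 494. The longest run of bases common to the main transcripts of MYL3 and MYL4 was 26, and that of MYL2 and MYL7 was 13. In the most alike window of 60 bases, 55 were the same in the essential pair and 47 in the regulatory pair. The capitals mark bases that are the same in both members of a pair.
MYL3, coding bases 200 to 259: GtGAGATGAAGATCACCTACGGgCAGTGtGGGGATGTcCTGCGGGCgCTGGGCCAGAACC
MYL4, coding bases 206 to 265: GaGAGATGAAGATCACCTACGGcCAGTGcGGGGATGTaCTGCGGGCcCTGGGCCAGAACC
MYL2, coding bases 43 to 102: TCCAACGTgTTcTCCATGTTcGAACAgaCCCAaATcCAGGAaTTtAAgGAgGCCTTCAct
MYL7, coding bases 67 to 126: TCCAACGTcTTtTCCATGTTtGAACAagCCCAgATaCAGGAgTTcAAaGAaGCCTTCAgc

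Promoters were held in the RefSeq table for MYL3 and MYL7 only, and the 250 bases before a start site of each are shown. Capitals mark the letters GATAA (bound by GATA factors), the letters CATTCCT (the MCAT element) and the serum response element (CArG box), each searched on both strands. The MYL7 sequence held 1 of each, at 41 to 37, 140 to 134 and 61 to 52 bases upstream of the start. The GATAA of MYL7 shared its G with a CANNTG motif at 46 to 41 bases. The MYL3 sequence held GATAA at 84 to 80 bases and no match to the other marked motifs. Of 35116 promoter windows of the same length, 20.4% held GATAA, 3.90% held CATTCCT, 1.16% held the serum response element and 61.8% held CANNTG. A second MYL3 start site listed in the table, with a GC content of 80.8%, held none of these motifs. The MEF2 box and the letters TATAAA and AAGTG were also searched and had no match in these sequences.
MYL7, chr7:44141333-44141582, minus strand, GRCh38.p14: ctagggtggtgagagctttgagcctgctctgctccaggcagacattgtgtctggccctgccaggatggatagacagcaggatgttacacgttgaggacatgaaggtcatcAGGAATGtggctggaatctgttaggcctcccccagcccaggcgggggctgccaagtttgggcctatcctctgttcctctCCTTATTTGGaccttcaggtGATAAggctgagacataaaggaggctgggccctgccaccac
MYL3, chr3:46861685-46861934, minus strand, GRCh38.p14: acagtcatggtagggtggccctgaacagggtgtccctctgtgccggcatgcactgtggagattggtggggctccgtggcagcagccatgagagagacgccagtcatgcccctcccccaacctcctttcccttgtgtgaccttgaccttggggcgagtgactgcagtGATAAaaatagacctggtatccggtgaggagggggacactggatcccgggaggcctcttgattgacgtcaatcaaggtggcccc

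After the study's limits on genes per cell and on mitochondrial reads, 2657 D8 cells, 3585 D14 cells and 1946 D21 cells were kept, with a median of 15316, 12282 and 14105.5 unique molecular identifiers (UMIs, 1 per captured RNA molecule) per cell. At D21 the mitochondrial limit of 10% alone removed 1982 barcodes, against 11 at D8 and 204 at D14. Barcode sequences found in more than 1 library numbered 136 of 17327. Clusters were made over all 3 libraries at once with the members, the other myosin chains and the chamber genes left out, and clusters were called cardiomyocyte-like (CM-like) by 8 markers of heart muscle. CM-like cells numbered 473 at D8 (cluster 5), 1129 at D14 (nearly all cluster 0) and 542 at D21 (cluster 4 with 490 cells and cluster 17 with 50). Clusters 0, 4 and 5 were at least 2-fold above the other cells of their day in all 8 markers and cluster 17 in 6. Cluster 17 had a median of 8172 UMIs per cell, and its 8 hepatic endoderm markers summed to 29941 per 1000000 UMIs (CPM), against 1529 CPM in cluster 4. Endoderm cells, which should lack these muscle genes, gave the background: an unnamed cluster of 257 cells at D8 and 209 at D14 with epithelial endoderm markers, and 306 hepatic endoderm-like cells at D21.

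In CM-like cells all 4 light chains rose with age, and the ventricular partner of each pair rose by more than the atrial one. MYL7, the atrial regulatory chain, was the highest in summed UMIs on every day. The median over single CM-like cells at D8 was higher for MYL4, at 964 CPM, than for MYL7, at 780 CPM. The summed level of MYL7 went from 2731 CPM on D8 (95% interval 2694 to 2769) through 9125 CPM on D14 (9076 to 9173) to 23523 CPM on D21 (23412 to 23634). MYL4, the atrial and embryonic essential chain, went from 1422 CPM (1395 to 1449) through 3643 CPM (3612 to 3673) to 8541 CPM (8474 to 8608) over the same days. MYL3, the ventricular essential chain, started at 141 CPM on D8 (132 to 150), reached 2038 CPM on D14 (2015 to 2061) and stood at 9618 CPM on D21 (9547 to 9689). MYL2, the ventricular regulatory chain, was nearly absent until the last day. It had 2 UMIs in 473 CM-like cells at D8, which is 0.264 CPM (0.032 to 0.955), 53 UMIs in 1129 cells at D14, which is 3.55 CPM (2.66 to 4.64), and 4002 UMIs in 542 cells at D21, which is 547 CPM (530 to 564). The intervals are exact Poisson intervals and cover counting error only. Levels are not divided by gene length, because a 3′ library counts each molecule once. The 8 heart muscle markers of the class summed to 7194, 16531 and 43531 CPM on the successive days, and the 8 hepatic endoderm markers in the same cells to 29.4, 130 and 3413 CPM. The part of either in the rise of the members was not tested. Per TNNT2 UMI, there were 1.53, 3.203 and 2.65 MYL7 UMIs on the successive days, 0.797, 1.28 and 0.964 of MYL4, and 0.079, 0.715 and 1.09 of MYL3, so that MYL7 and MYL4 were lower relative to TNNT2 on D21 than on D14.

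**Figure D1:**
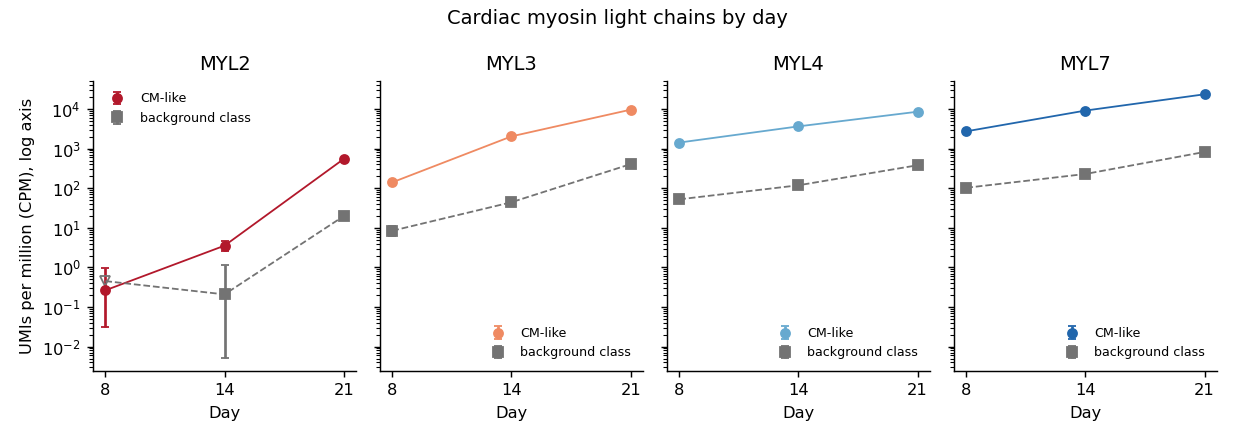
Level of each light chain in CPM (log axis) by day, in CM-like cells (circles) and in the background class of endoderm cells (grey squares); bars are exact 95% Poisson intervals, mostly smaller than the points, and the open triangle marks a count of 0 drawn at 3 counts. MYL2 in CM-like cells lay near 0.264 CPM at D8 and at 547 CPM at D21, while MYL7 lay above the other members on every day.

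The order of summed levels in CM-like cells was MYL7, MYL4, MYL3, MYL2 at D8 and D14, and MYL7, MYL3, MYL4, MYL2 at D21, with no overlap of the counting intervals of neighbours. From D8 to D14 the log2 ratio was 3.85 for MYL3 (3.77 to 3.94), 1.74 for MYL7 (1.72 to 1.76) and 1.36 for MYL4 (1.33 to 1.39). For MYL2 it was 3.75 (1.82 to 6.83), which rests on 2 UMIs at D8. From D14 to D21 the log2 ratio was 7.27 for MYL2 (6.88 to 7.69), or 154-fold, 2.24 for MYL3 (2.22 to 2.26), 1.37 for MYL7 (1.36 to 1.38) and 1.23 for MYL4 (1.21 to 1.25). On the log2 scale the larger step of MYL3 came before D14 and that of MYL2 after it. The median log2 ratio of all such genes was 0.05 at the first step and -0.18 at the second. Of the members at 10 CPM or more on at least 1 of the days, 3 of 3 were at least 2-fold higher at D14 than at D8, where 10.5% of all such genes were, and 4 of 4 were at least 2-fold higher at D21 than at D14, where 5.06% were. The calls of MYL4 and MYL7 from D14 to D21 did not hold at a finer clustering (resolution 1.2), which kept 647 CM-like cells at D14 and gave log2 ratios of 0.84 and 0.82.

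The background levels rose with the CM-like levels. In endoderm cells MYL7 went from 103 CPM through 229 CPM to 823 CPM, MYL4 from 52.4 through 119 to 380 CPM, and MYL3 from 8.44 through 44.3 to 405 CPM. MYL2 had no UMI in the 257 background cells at D8, 1 UMI in 209 cells at D14 and 148 UMIs at D21, which is 19.7 CPM (16.7 to 23.1). The level in CM-like cells was thus more than 20 times that of the background for each member at D21. With the background level subtracted, the log2 ratio of D14 to D21 was 2.21 for MYL3, 1.21 for MYL4 and 1.35 for MYL7.

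The essential pair passed from mostly MYL4 to a little more MYL3 than MYL4. MYL3 gave 9.01% of the MYL3 and MYL4 UMIs in CM-like cells of D8 (8.50 to 9.54), 35.9% in those of D14 (35.5 to 36.2) and 53.0% in those of D21 (52.7 to 53.2). In single CM-like cells with at least 20 UMIs of the pair, the median share rose from 5.00% on D8 through 33.9% on D14 to 53.4% on D21. MYL3 outnumbered MYL4 in 1 of 195 such cells at D8, in 131 of 857 at D14 and in 321 of 538 at D21. The regulatory pair did not pass over at any day. MYL2 gave 0.00968% of the MYL2 and MYL7 UMIs on D8, 0.0389% on D14 and 2.27% on D21 (2.20 to 2.34). No CM-like cell with at least 20 UMIs of that pair had more MYL2 than MYL7, and the highest share in such a CM-like cell at D21 was 24.6%. The hepatic endoderm-like cells of the D21 library held 51.6% MYL3 (50.3 to 52.9) and 2.34% MYL2 (1.98 to 2.74), with intervals that overlapped those of the CM-like cells. Their pairs at D8 and D14 rested on 404 and 780 UMIs of MYL3 and MYL4, of which 13.9% and 27.2% were MYL3.

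**Figure D2:**
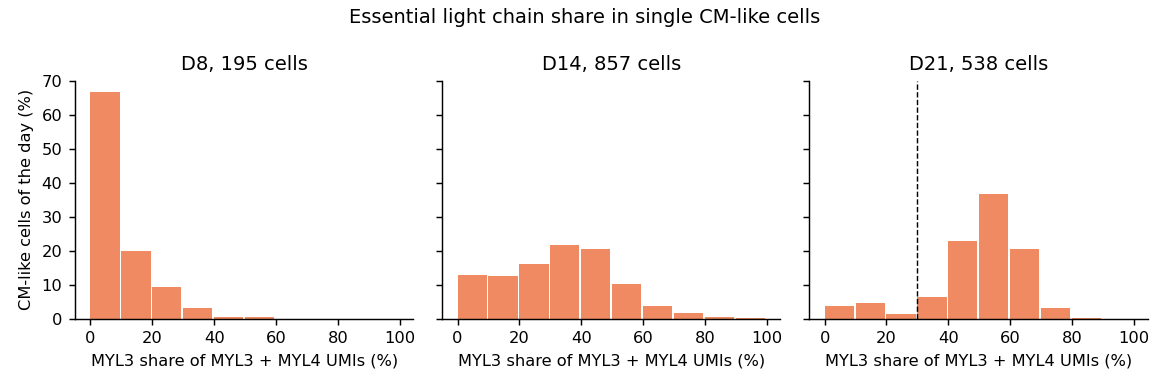
Share of MYL3 in the MYL3 and MYL4 UMIs of single CM-like cells with at least 20 UMIs of the pair, in bins of 10%; the height is the percent of such cells of the day, from 195 D8 cells, 857 D14 cells and 538 D21 cells. The D21 cells lay around 53.4%, with a separate group of 53 cells below the dashed line at 30%.

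At D21 the shares in single cells fell into an upper and a lower group. Of the 538 cells, 21 lay below 10% MYL3, 25 between 10 and 20%, only 7 between 20 and 30%, 34 between 30 and 40%, and 198 between 50 and 60%. The D14 cells showed no such gap, with 111, 107, 138, 186 and 175 cells in the successive bins up to 50%. The limit of 30% was set after these values were seen, so MYL3 and MYL4 in the 2 groups are a description. The 53 cells below 30%, all of cluster 4, had 1009 CPM of MYL3 and 7092 CPM of MYL4, against 10641 and 8769 CPM in the other 485. The lower group was thus poor in MYL3 rather than rich in MYL4.

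The same 53 cells were poor in MYL2, which had no part in the split. MYL2 stood at 34.8 CPM in them and at 607 CPM in the other cells, a log2 difference of -4.13 (-4.76 to -3.56). After thinning to 4000 UMIs, 6 of the 53 cells had a MYL2 UMI (11.3%, 4.27 to 23.0), against 240 of 485 (49.5%, 44.9 to 54.0). MYL7 was lower by less, at 14396 against 24715 CPM. Among heavy chains, MYH7, the slow chain that prevails in the adult ventricle, was at 64.0 against 705 CPM, a log2 difference of -3.46 (-3.91 to -3.04), whereas MYH6, the fast chain of atrium and embryo, was at 6775 against 9174 CPM. The calcium-binding troponin TNNC1 was at 3609 against 8431 CPM and the Z-disc protein TCAP at 73.8 against 407 CPM, while troponin T (TNNT2) was at 8275 against 8997 CPM. The ventricular transcription factors HEY2 and IRX4 were also lower, HEY2 at 22.3 against 91.9 CPM and IRX4 by a log2 difference of -1.41 (-2.03 to -0.86). The other genes of the ventricular list did not share this, with LBH higher at 703 against 415 CPM, a log2 difference of 0.76 (0.62 to 0.90), and FHL2 at 397 against 484 CPM, a log2 difference of -0.29 (-0.47 to -0.11). Of the atrial list, NPPA (atrial natriuretic peptide) was at 528 against 341 CPM, and KCNJ3, a channel subunit of the atrial acetylcholine-gated current, at 27.8 against 11.8 CPM. SLN (sarcolipin) had no UMI in the 53 cells and only 5 in the other 485, so it does not separate the groups. TBX5 was at 47.3 against 28.6 CPM, and NR2F2 at 22.3 against 8.71 CPM, with 26.4 CPM in the background class. HEY1 was at 11.1 against 9.01 CPM, a log2 difference of 0.31 (-0.97 to 1.38). NR2F1 had 1 UMI against 9, and KCNA5 none against 1. MYLK, the kinase of smooth muscle light chains, was at 213 CPM (153 UMIs) against 7.64 CPM (50 UMIs), a log2 difference of 4.80 (4.33 to 5.29), while the cardiac kinase MYLK3 was at 23.7 against 37.0 CPM.

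With 10 CPM added to both groups, the genes with the largest fold in the low-MYL3 cells, among 1526 at 100 CPM or more in either group, were UCHL1, MYLK, GPX3, FRZB and FBXO2. UCHL1, a ubiquitin hydrolase best known from neurons, was at 423 against 21.7 CPM, and FRZB, a secreted Wnt antagonist, at 131 against 2.90 CPM. BMP2, a ligand that patterns the heart, was also among the top 10, at 120 against 20.6 CPM. The median depth was 11589 UMIs in the low-MYL3 cells and 12908 in the others, with 8.27% and 8.43% mitochondrial UMIs. The 8 smooth muscle markers, of which MYLK is one, summed to 3142 CPM with all 8 above 0, against 1897 CPM with all 8 above 0. The fibroblast markers summed to 443 CPM with 7 of 8 above 0, against 203 CPM with 8 of 8, and the hepatic endoderm markers to 1496 against 3609 CPM with 8 of 8 in both. The part of these other RNAs in the difference was not tested. The low-MYL3 cells were 9.85% of the 538 CM-like cells with at least 20 UMIs of the pair (7.47 to 12.7). With a mitochondrial limit of 20% they were 4.52%, or 67 of 1481 cells. In those 67 cells MYL7 was at 21797 against 25206 CPM in the others, and MYLK at 92.0 against 5.48 CPM. MYL3 was at 1724 against 10521 CPM, MYL2 at 50.4 against 493 CPM and MYH7 at 73.1 against 671 CPM.

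**Figure D3:**
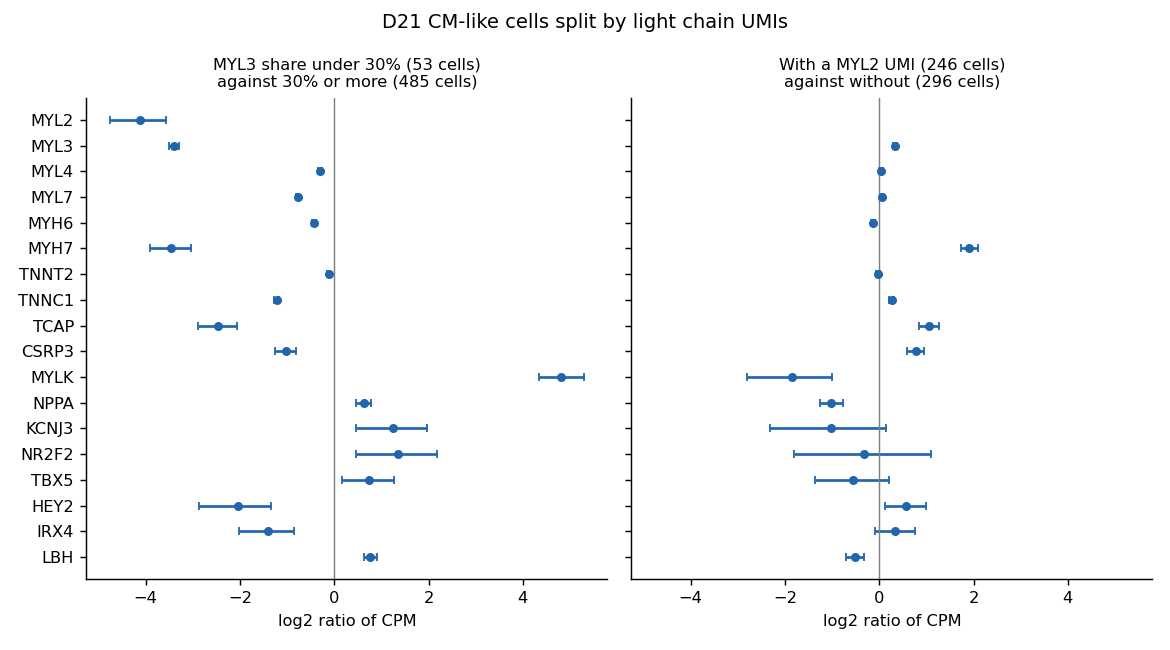
Log2 ratio of CPM for light chains, heavy chains, sarcomere and chamber genes in D21 CM-like cells, with exact 95% intervals from counts; left, cells under 30% MYL3 share against the others, right, cells with a MYL2 UMI after thinning against cells without (MYL2 itself is left out). MYL2 and MYH7 were lower in the low-MYL3 cells, at -4.13 and -3.46, and MYH7 was higher by 1.91 in the cells with MYL2. The 2 splits overlap, as only 6 of the 53 low-MYL3 cells had a MYL2 UMI after thinning.

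MYL2 was spread unevenly over the D21 cardiomyocytes. No MYL2 UMI was found in 182 of the 542 cells, the median was 1 UMI, 87 cells had 10 or more and the highest had 180. The 55 cells richest in MYL2 held 68.8% of its UMIs, whereas the 55 cells richest in each other member held 23.8% of the MYL3, 23.9% of the MYL4 and 25.7% of the MYL7 UMIs. From the 10th to the 90th percentile of cells, MYL4 ran from 4183 to 12584 CPM, MYL7 from 9683 to 37437 CPM and MYL3 from 2460 to 15475 CPM. MYL2 ran from 0 to 1636 CPM.

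Within single cells the atrial and ventricular chains were found together. With each cell thinned to 4000 UMIs, 246 of 542 CM-like cells at D21 held both MYL2 and MYL7 (45.4%, exact binomial interval 41.1 to 49.7). All 246 also held MYL3 and MYL4, and no cell held MYL2 without MYL7. The share of background cells with both was 6.21% (3.78 to 9.53), at a median depth before thinning of 21929.5 UMIs against 12778.5 in CM-like cells. MYL7 was found in 100% of the D21 CM-like cells, so the share with both equals the share with MYL2. Without thinning 66.4% of the cells held both, and in cluster 17 alone 64.0% did after thinning, against 43.7% in cluster 4. With at least 2 UMIs of each required, the shares were 24.0% in cluster 17 and 25.9% in cluster 4. MYL3 and MYL4 were found together in 22.2% of the CM-like cells on D8 (18.5 to 26.2), 77.9% on D14 (75.4 to 80.3) and 98.7% on D21 (97.4 to 99.5), against 1.56%, 5.26% and 51.6% in the background class. The product of the single shares of MYL3 and MYL4 was close to these values in CM-like cells, at 19.6%, 76.2% and 98.7%. MYL4 without MYL3 was seen in 302 of 473 cells at D8, 207 of 1129 at D14 and 7 of 542 at D21, and MYL3 without MYL4 in 3, 13 and 0 cells.

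All 4 members were found in 0 of 473 CM-like cells at D8, which by the limit of 3 counts allows up to 0.634% of cells with such UMIs after thinning and does not bound the cells that express them, in 12 of 1129 at D14 (1.06%) and in 246 of 542 at D21 (45.4%). The cells with none of the 4 numbered 28 at D8 (5.92%), 7 at D14 (0.620%) and 0 at D21. In the background class at D21, 11 of 306 cells held all 4 (3.59%), 137 held 3 (44.8%) and 5 held none. Cells with a single member numbered 102 of 473 at D8, 65 of 1129 at D14 and none of 542 at D21.

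The 246 D21 cells with a MYL2 UMI were set against the 296 without one. MYH7 was at 1018 against 271 CPM, a log2 difference of 1.91 (1.73 to 2.10). TCAP was at 528 against 254 CPM and CSRP3, a muscle LIM protein of the Z-disc, at 583 against 342 CPM. Other sarcomere genes differed less, with log2 differences of -0.02 for TNNT2, -0.03 for ACTC1, 0.09 for MYBPC3, 0.18 for ACTN2 and 0.28 for TTN. MYL3 was at 10437 against 8278 CPM, while MYL4 was at 8206 against 8004 CPM and MYL7 at 22671 against 21870 CPM. NPPA was lower in the cells with MYL2, at 212 against 429 CPM, a log2 difference of -1.01 (-1.25 to -0.78), and MYLK was at 14.2 against 51.5 CPM. HEY2 was at 105 against 70.9 CPM, and IRX4 had a log2 difference of 0.34 with an interval from -0.08 to 0.76. LBH and FHL2, also of the ventricular list, were lower with MYL2, at 367 against 521 CPM and 417 against 519 CPM. The median depth was 12873.5 UMIs with MYL2 and 12667 without. This split overlapped that by MYL3 share, as only 6 of the 53 low-MYL3 cells had a MYL2 UMI after thinning. Cluster 17 gave 32 of the cells with MYL2 and 18 of those without. The part of either in these differences was not tested. Across the 542 cells the correlation of thinned log counts was 0.47 for MYL2 and MYH7, 0.56 for MYL4 and MYL7 and 0.51 for MYL3 and MYL4, and all cells shared 1 library.

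At D8 and D14 MYL7, the highest member in summed UMIs, also had the widest range in CPM. From the 10th to the 90th percentile of CM-like cells it ran from 66.4 to 7677 CPM at D8, with a highest value of 48107 CPM, and from 269 to 23776 CPM at D14, with a highest value of 75150 CPM. Relative to its level MYL3 ranged more widely, from 0 to 358 CPM at D8 and from 35.8 to 4718 CPM at D14. A level of 10000 CPM, chosen after the values were seen, was reached by 33 of 473 cells at D8 and by 311 of 1129 at D14. At D14 the MYL7-rich cells also had more MYL3, 3772 against 1270 CPM, more MYL4, 6093 against 2559 CPM, and 7.64 against 1.74 CPM of MYL2. NPPA was at 483 against 26.3 CPM, the largest fold of 1513 genes compared with 10 CPM added, followed by MYL7 itself, skeletal actin ACTA1 at 304 against 32.4 CPM and NPPB, another natriuretic peptide, at 132 against 10.5 CPM. SLN was at 213 against 122 CPM, KCNA5 at 13.8 against 7.92 CPM and TBX5 at 12.2 against 7.05 CPM. HEY1, also of the atrial list, was lower at 13.3 against 27.0 CPM, and NR2F2 was at 4.80 against 5.31 CPM. KCNJ3 had 5 UMIs against 10, and NR2F1 none against 9. Of the ventricular list, MYH7 was at 51.1 against 16.4 CPM, IRX4 at 4.80 against 2.32 CPM and HEY2 at 7.86 against 7.72 CPM. FHL2 was at 636 against 490 CPM and LBH at 400 against 427 CPM. TNNT2 was at 4365 against 2179 CPM. ISL1, a transcription factor of cardiac progenitors, was at 32.5 against 113 CPM and HAND2 at 99.7 against 268 CPM. At D8 the 33 MYL7-rich cells had more MYL3, by a log2 difference of 2.72 (2.54 to 2.91), and 3865 against 1239 CPM of MYL4, with ACTC1, the cardiac actin, at 6091 against 892 CPM. The median mitochondrial share was 6.15% in the MYL7-rich cells of D14 and 4.62% in the others, and 4.48% against 2.76% at D8. The smooth muscle markers summed to 1816 against 1165 CPM at D14 and to 4302 against 1664 CPM at D8, with 8 of 8 above 0 in each. The heart muscle markers summed to 25411 against 12604 CPM at D14 and to 18516 against 6348 CPM at D8. At D8 the log2 difference was 1.76 (1.70 to 1.82) for TNNT2 and 1.64 (1.57 to 1.71) for MYL4. The part of any of these in the light chain levels was not tested.

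CM-like cells held from 67.8 to 79.3% of the UMIs of MYL3, MYL4 and MYL7 at D8 and 2 of the 3 MYL2 UMIs. They held from 79.1 to 90.5% of each member's UMIs at D14 and 77.9 to 80.3% at D21. An unnamed cluster of 58 cells at D21 (cluster 16) had 455 CPM of MYL2, 4999 of MYL3, 4450 of MYL4 and 10550 of MYL7. Each of these levels lay between those of CM-like and other cells. The share of MYL2 in the regulatory pair was higher in cluster 16, at 4.14% (3.795 to 4.497), than in D21 CM-like cells, at 2.27%. Among single cells with at least 20 UMIs of that pair, the highest share was 28.5% in cluster 16 and 24.6% in CM-like cells. The median depth of cluster 16 was 19310.5 UMIs, and its fibroblast markers summed to 3159 CPM beside 22239 CPM of heart muscle markers. A dividing cluster with 34 cells at D21 (cluster 7) had 18787 CPM of MYL7 and 134 CPM of MYL2. Inside the CM-like class at D21, 25 cells with 3 or more UMIs of dividing markers had 13840 CPM of MYL7 (13120 to 14589) and 5550 CPM of MYL3 (5098 to 6032), against 23177 and 9768 CPM in 409 cells with none.

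At D14 small clusters outside the CM-like class had more of the atrial chains relative to troponin T in their summed counts. The 29 cells of cluster 1 had 795 CPM of MYL4 and 1411 CPM of MYL7 with 143 CPM of TNNT2, a MYL7 to TNNT2 ratio of 9.86, and the 21 dividing cells of cluster 8 had a ratio of 9.54. The ratio was 3.34 in the background class, 3.68 in all cells outside the CM-like class and 1.87 in the 1028 cells of cluster 2. In cluster 1 MYL3 was at 44.2 CPM, against 44.3 CPM in the background, and MYL2 had no UMI, with an upper limit of 6.51 CPM. The MYL7 UMIs were spread unevenly over these cells. After thinning, the median cell had 1 MYL7 UMI in cluster 1, in cluster 8 and in the background class, while the 90th percentile was 6.4 UMIs in cluster 1, 13 in cluster 8 and 2 in the background class. A MYL7 UMI was present in 62.1% of cluster 1, 71.4% of cluster 8 and 55.0% of the background class.

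**Figure D4:**
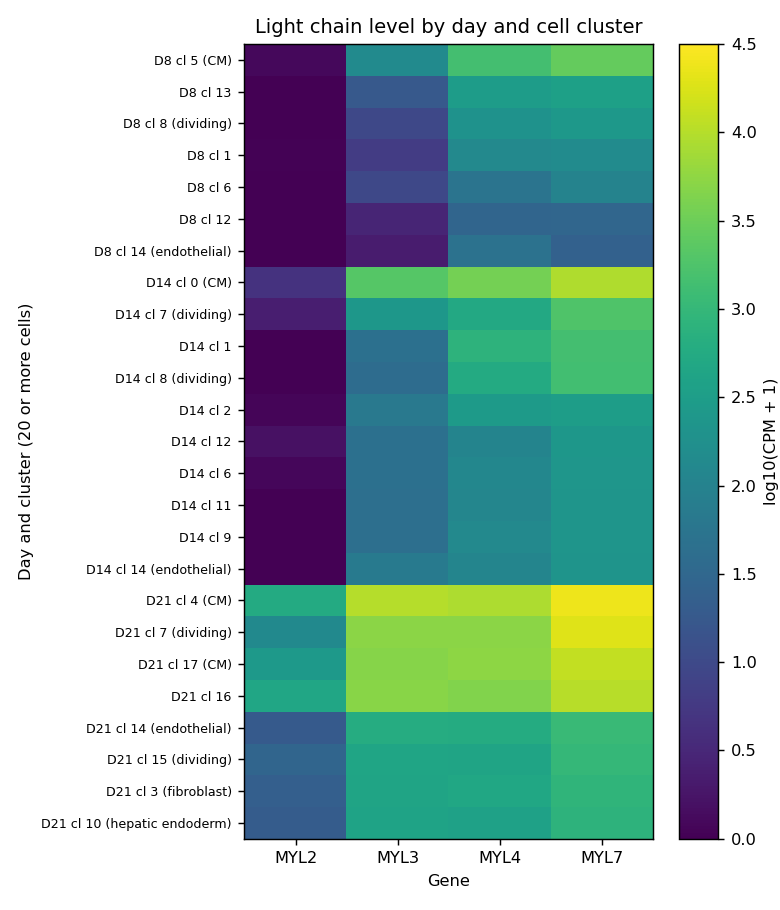
Level of the 4 light chains, as log10(CPM + 1) in colour, in each day and cluster with at least 20 cells, ordered within a day by MYL7. MYL7 was highest in cluster 5 at D8, cluster 0 at D14 and cluster 4 at D21, and MYL2 was above 100 CPM only at D21, in clusters 4, 7, 16 and 17.

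The genes whose levels were most alike over the 25 day-by-cluster groups differed between MYL2, MYL3 and the atrial chains, except that SMPX was listed for both MYL3 and MYL7. For MYL2 they were HSPB3, SH3BGR, IRX4, TRIM63 and S100A8, with Pearson correlations of log2(CPM + 10) from 0.979 to 0.958. For MYL3 they were TNNC1, MYBPC3, SMPX, ACTN2 and COX6A2, from 0.985 to 0.953. MYL4 and MYL7 were each other's most alike gene at 0.987 of 5643 genes compared. The next were MYH6, ACTC1, TNNT2 and PLN for MYL4, and ACTC1, MYH6, SMPX and PLN for MYL7. The groups of a day shared a library and its free RNA.

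Most of the other light chains were not called at either step. Of 9 other myosin light chains 6 passed the limit of 10 CPM, and 1 was at least 2-fold higher at each step with none lower. This was MYL9, the regulatory chain of smooth muscle, at 470, 1110 and 3778 CPM on the successive days. MYL6, the essential chain of non-muscle and smooth muscle myosin, was at 2396, 3118 and 2641 CPM. Thus at D8 the non-muscle MYL6 exceeded both cardiac essential chains, and at D21 it was below each of them. Of 8 kinase and phosphatase genes 6 passed. From D8 to D14, 3 were higher and none lower, and from D14 to D21, 1 was higher and none lower. MYLK3 was higher at both steps, going from 5.02 CPM on D8 to 35.4 CPM on D21. The skeletal kinase MYLK2 had 1, 0 and 1 UMIs.

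Among 6 heavy chains 5 passed, and 3 were higher with none lower at D14, and 3 higher and 1 lower at D21. MYH6 was at 1124, 4005 and 8877 CPM, MYH7 at 3.57, 27.0 and 639 CPM, and MYH7B at 3.44, 66.7 and 168 CPM. The lower gene was MYH9, a non-muscle chain, at 30.05 CPM after 78.2 CPM. As in the regulatory pair, the ventricular gene MYH7 stayed far below its atrial and embryonic partner MYH6 at D21. Of 17 other sarcomere genes 16 passed, with 9 higher and 1 lower at D14 and 10 higher and 1 lower at D21. The lower genes were ACTA1 at D14, at 116 CPM after 561 CPM, and TNNI3, the adult cardiac troponin I, at D21, at 23.6 CPM after 94.0 CPM. TNNI3 stood near the background class on the earlier days, which had 62.5 CPM at D8 and 73.3 CPM at D14, against 2.13 CPM at D21. Among D14 CM-like cells TNNI3 was at 149 CPM in the MYL7-rich cells and 69.6 CPM in the others. Whether its fall was a loss from cardiomyocytes was not tested.

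The atrial list gave calls in both directions at D21 and the ventricular list only higher ones. Of 8 atrial genes 4 passed at the step to D14 and none was called. At the step to D21, 6 passed, 3 were higher and 2 were lower. NPPA was at 105, 166 and 356 CPM and KCNJ3 at 0.13, 1.00 and 13.2 CPM, whereas SLN was at 201, 150 and 0.684 CPM and HEY1 went from 22.8 CPM at D14 to 9.15 CPM at D21. HEY1 did not stand clear of the background class, which had 21.1 CPM at D14 and 9.18 CPM at D21. Of 5 ventricular genes 3 passed at the step to D14, with 2 higher, which were FHL2 and MYH7. At the step to D21, 5 passed, with 3 higher (MYH7, HEY2 and IRX4) and none lower. MYH7 was also counted among the heavy chains. FHL2 was at 68.8, 535 and 472 CPM on the successive days. HEY2 was at 4.89, 7.76 and 84.5 CPM and IRX4 at 0.66, 3.08 and 93.2 CPM. Of 11 cardiac transcription factors 10 passed, with 2 higher at D14 and 1 lower at D21. The lower gene was MEF2C, a factor that acts on many muscle gene promoters, at 617, 469 and 72.7 CPM. The shares of all genes called lower were 2.22% at D14 and 14.9% at D21.

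Barcodes over the mitochondrial limit held the members too, which matters at D21 because most of its cardiomyocyte barcodes lay there. With a gate on TNNT2, TNNC1 and ACTN2 in place of clusters, 642 barcodes lay under 10% mitochondrial UMIs, 1449 between 10 and 20% and 305 at 20% or more. Per 1000000 non-mitochondrial UMIs, MYL7 was at 23953 in the 592 barcodes at 5 to 10%, 25765 at 10 to 20% and 22660 at 20% or more, and MYL3 was at 9760, 10116 and 8946. MYL2 was at 563, 411 and 333, so its share of the regulatory pair was 2.30% (2.23 to 2.36), 1.57% (1.53 to 1.61) and 1.45% (1.35 to 1.55). The share of MYL3 in the essential pair was 53.2%, 54.2% and 55.6%. In the 50 barcodes under 5% the levels were lower, with 13000 for MYL7, 4861 for MYL3 and 320 for MYL2.

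**Figure D5:**
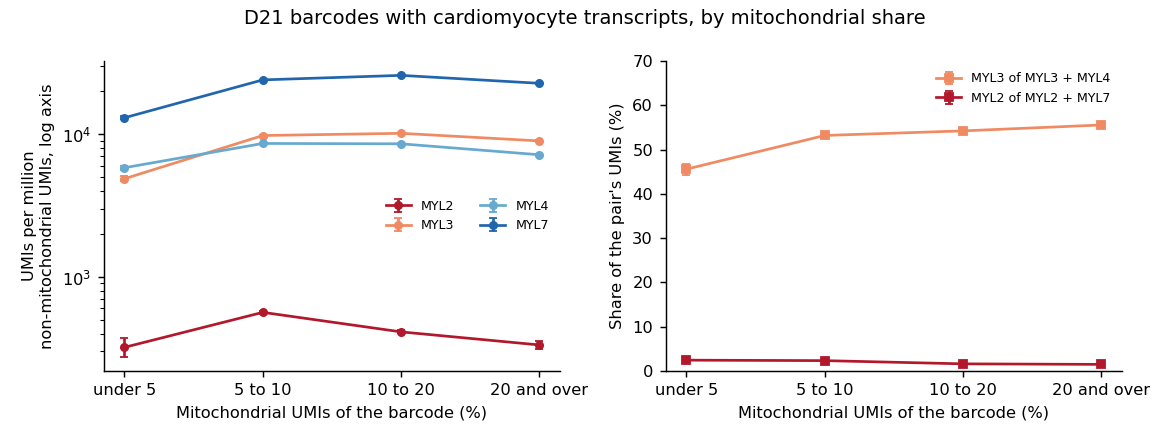
Left, level of the light chains per 1000000 non-mitochondrial UMIs (log axis) in D21 barcodes that pass the gate on TNNT2, TNNC1 and ACTN2, by the mitochondrial share of the barcode; right, share of MYL3 and of MYL2 in the UMIs of their pair; bars are exact 95% intervals. The MYL2 share went from 2.30% at 5 to 10% mitochondrial UMIs to 1.45% at 20% or more.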

How the data were processed

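Per the labels, CCOs were dissociated at D8, D14 and D21 and libraries made with the Chromium Single Cell 3′ v2 kit. The submitters' processing notes name Cell Ranger, Seurat 3.2.1 and hg19. The table deposited by the authors holds UMI counts as whole numbers, not normalized, for 17327 barcodes of the 3 libraries, and still includes barcodes that the study's limits remove. Days were taken from the labels and 1 library makes each day, so no test was run. The members and gene lists were chosen with earlier results of these data known.

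Barcodes with over 2000 and under 7500 genes and under 10% mitochondrial UMIs were kept, the limits of the study's methods. Genes in at least 10 barcodes were log-normalized, and 1981 of 2000 variable genes, 20 components and a resolution of 0.8 gave 18 clusters (R 4.3.3, Seurat 5.3.0). Of the 10 marker lists of 8 genes, a class needed 3 markers at least 2-fold higher than in the rest of the day and a lead of 2. Doublets were not called or removed. Summed UMIs per class were divided by total UMIs (CPM), with exact Poisson or Clopper-Pearson 95% intervals (scipy 1.17.1). Cells were thinned to 4000 UMIs for co-detection. A gene was tested at 10 CPM or more on at least 1 day and called at 2-fold with 1 count added. The ratio and its interval were tested on simulated data. Coding sequences came from GENCODE 29 (Biopython 1.88) and promoters from the RefSeq table, which matched 2 of 4 members.

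Genes named were the members, the listed genes and the 5 most alike per member. Genes that lead a split of cells, and the splits, were chosen after their values were seen.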

Additional observations from a re-analysis of the deposited data

Results flagged for a closer look

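The D21 barcodes with 10 to 20% mitochondrial UMIs were outside the comparisons, and they were picked out because they carried more of the members than the background class. In the 1449 such barcodes that passed the gate on TNNT2, TNNC1 and ACTN2, MYL2 was at 411, MYL3 at 10116, MYL4 at 8539 and MYL7 at 25765 per 1000000 non-mitochondrial UMIs. In the 306 hepatic endoderm-like cells of D21, per 1000000 of all UMIs, they were at 19.7, 405, 380 and 823. The gate asked for at least 5 times the background level of its heart muscle genes. Light chain levels above the background were thus largely built into the choice of barcodes.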

How the results depend on the processing

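Each day is 1 library and counting intervals are narrow, so most alternatives moved a value past its interval, and no log2 ratio changed sign. At resolution 0.4 the log2 ratios of D8 to D14 were 3.57 for MYL3, 1.10 for MYL4 and 1.46 for MYL7, those of D14 to D21 were 2.38, 1.35 and 1.498, and the pair shares were 35.4% MYL3 at D14 and 2.39% MYL2 at D21. At resolution 1.2 the same ratios were 4.37, 1.73 and 2.27, then 1.70, 0.84 and 0.82, with 6.73 for MYL2 from D14 to D21 and 38.3% MYL3 at D14. With a mitochondrial limit of 20% the ratios of D8 to D14 were 1.39 for MYL4 and 1.87 for MYL7, those of D14 to D21 were 2.18 for MYL3, 1.11 for MYL4 and 1.29 for MYL7, and the shares were 37.0% MYL3 at D14, 55.2% MYL3 and 1.86% MYL2 at D21, with 4.52% of cells below 30% MYL3. With a limit of 5% the ratios of D8 to D14 were 4.52 for MYL3, 1.62 for MYL4 and 2.10 for MYL7, with 7.75% MYL3 at D8 and 38.5% at D14, and only 1 CM-like cell was left at D21, so no D21 value was given.

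With the gate in place of clusters the ratios were 3.96, 1.47 and 1.94 for MYL3, MYL4 and MYL7 from D8 to D14 and 2.12, 1.10 and 1.19 from D14 to D21. Median-of-ratios factors, which moved all D14 to D21 ratios by 0.18, gave 1.30 for MYL4 and 1.68 for MYL7 from D8 to D14, and 2.42, 1.41 and 1.55 for MYL3, MYL4 and MYL7 from D14 to D21. Without mitochondrial UMIs in the denominator the last 3 were 2.28, 1.27 and 1.41, with 1.77 for MYL7 from D8 to D14; with the background subtracted they were 2.21, 1.21 and 1.35; and without cluster 17, an alternative chosen after seeing the data, 2.29, 1.27 and 1.41. Co-detection of MYL2 and MYL7 at D21 was 66.4% without thinning, 33.4% at 2000 UMIs and 25.6% with at least 2 UMIs of each. With no filter on low genes, 3 listed genes in place of 1 were 2-fold lower at D14 and 8 in place of 5 at D21. The cause of these shifts was not tested. No paired analysis was possible because each day is 1 library. At D8 the depth allowed MYL2 to be read only as 2 UMIs.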
